A study of Mus musculus with 9 samples.

Results

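The TRBJ1 cluster holds the first group of joining (J) segments of the mouse T cell receptor β locus, and its 6 genes TRBJ1-1 to TRBJ1-6 were followed here in T cells of lymph nodes from WT mice and from 5xFAD mice, a transgenic model of Alzheimer's disease. Members were the productive TRB contigs whose first J call named a TRBJ1 gene, and each distinct combination of TRBV gene, TRBJ gene and nucleotide junction was counted once per library. This gave 9576 TRBJ1 rearrangements among 27448 TRB rearrangements in 8 libraries, and the 6 TRBJ1 genes were 6 of the 12 TRBJ genes called. The other 17872 rearrangements used a TRBJ2 gene.

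All mice were females of 10 to 11 months. Cells of dissociated deep cervical nodes (dCLN), superficial cervical nodes (sCLN) and inguinal nodes (iLN) were tagged with hashing antibodies, pooled and sequenced as 5′ single-cell V(D)J libraries, with 1 library for each of the 3 node types in each of the 2 genotypes (6 main libraries). The 2 further libraries used here were a dCLN library titled CD4 and labelled WT, and a library that mixed all 3 node types of WT and 5xFAD mice. A second CD4-titled library, labelled 5xFAD, shared 6526 of the 6628 barcodes with the first and was left out. Neither the number of animals behind a library nor whether node types share animals is given, so every p-value measures the spread between these libraries only. The transgenes of the 5xFAD line are driven by the neuronal Thy1 promoter.

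A β chain is assembled in the thymus by joining a D to a J segment and then a V segment to that DJ unit. The ends of the segments are trimmed and bases are added between them, and the stretch from the conserved cysteine codon of V to the conserved phenylalanine codon of J, called the junction, encodes the third complementarity-determining region, which contacts the peptide in the MHC groove. TRBD1 lies upstream of both J clusters, TRBD2 lies between them, and TRBC1, the constant gene of the first cluster, lies between TRBJ1 and TRBD2, so TRBJ1 rearrangements are known to use TRBD1 and to be spliced to TRBC1.

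The germline sequences of the 6 genes, which set how many bases each can give to the junction, are shown 5′ to 3′ on the plus strand of chromosome 6, with the part that falls in the junction in capitals (GENCODE vM21 annotation and transcripts on GRCm38).
TRBJ1-1: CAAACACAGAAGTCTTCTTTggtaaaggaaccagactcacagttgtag
TRBJ1-2: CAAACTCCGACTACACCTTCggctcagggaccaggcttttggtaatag
TRBJ1-3: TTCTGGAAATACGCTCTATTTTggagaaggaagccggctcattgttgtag
TRBJ1-4: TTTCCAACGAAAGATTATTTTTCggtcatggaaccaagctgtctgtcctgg
TRBJ1-5: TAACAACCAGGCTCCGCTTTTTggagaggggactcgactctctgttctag
TRBJ1-6: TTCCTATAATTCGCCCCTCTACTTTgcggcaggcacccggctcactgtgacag

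TRBJ1-1 lay at chr6:41533864-41533911, 652 bases beyond the end of TRBD1, and TRBJ1-2 at chr6:41534001-41534048, 789 bases beyond it. TRBJ1-3 followed at chr6:41534323-41534372, TRBJ1-4 at chr6:41534811-41534861 and TRBJ1-5 at chr6:41535084-41535133. TRBJ1-6, the most distant of the 6, lay at chr6:41535554-41535606, 2342 bases from TRBD1. The germline junction part was shortest in TRBJ1-1 and TRBJ1-2, at 20 bases each, and longest in TRBJ1-6, at 25 bases. The annotation also lists TRBJ1-7, and no contig was called as TRBJ1-7.

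The libraries held 1963 to 6963 productive TRB contigs and 1875 to 6686 distinct TRB rearrangements. Of the 9945 TRBJ1 contigs, 9618 carried a TRBC1 call, 0 a TRBC2 call and 327 no constant call. Median depth was 6 to 9 UMIs per TRBJ1 contig and 7 to 10 UMIs per TRBJ2 contig. Pairs of these 8 libraries shared 3 to 40 barcodes, and no shared barcode carried the same junction in both libraries.

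TRBJ1 genes took a minority of the repertoire in every library. Their share of distinct TRB rearrangements was 33.9% in dCLN WT and 31.6% in dCLN 5xFAD, 32.9% in sCLN WT and 33.1% in sCLN 5xFAD, and 36.5% in iLN WT and 30.1% in iLN 5xFAD. It was 38.3% in the CD4-titled library and 37.8% in the mixed library, the highest values of the 8. Across the 3 node types the 5xFAD share was lower than the WT share in dCLN (by 2.22 points) and in iLN (by 6.40 points), while in sCLN it was 0.27 points higher. The mean difference of -2.78 points had an exact sign-flip p of 0.5 (two-sided), and 0.25 is the smallest p that 3 node types allow.

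Within the cluster the order of use was TRBJ1-1, TRBJ1-4, TRBJ1-2, TRBJ1-3, TRBJ1-6 and TRBJ1-5 by mean share. TRBJ1-1, the first gene after TRBD1, made up 12.3%, 10.6% and 10.8% of TRB rearrangements in the WT libraries of dCLN, sCLN and iLN, in that order, and 10.4%, 9.53% and 8.36% in the 5xFAD libraries. It made up 12.2% in the CD4-titled library and 11.97% in the mixed library. It was the most used TRBJ1 gene in 8 of 8 libraries, with a mean of 10.8% ± 1.38 (SD, n = 8). TRBJ1-4, although 3 TRBJ genes lie between it and TRBD1, ranked second in 8 of 8 libraries at 6.62% ± 0.63 (SD, n = 8), with values from 5.81% in dCLN 5xFAD to 7.46% in iLN WT. TRBJ1-2 averaged 5.65% ± 0.90 (SD, n = 8) and TRBJ1-3 averaged 5.23% ± 0.69 (SD, n = 8). TRBJ1-6 averaged 3.26% ± 0.44 (SD, n = 8) and TRBJ1-5 averaged 2.76% ± 0.41 (SD, n = 8). TRBJ1-5 was the least used gene in 7 libraries and TRBJ1-6 in dCLN WT.

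Each order was tested within libraries, on log2 shares, by an exact two-sided sign-flip test over the 8 libraries with Benjamini-Hochberg adjustment over all 66 pairs of TRBJ genes. At an adjusted p under 0.05, 13 of the 15 TRBJ1 pairs differed (exact adjusted p = 0.00905 for each), against 89.4% of all 66 pairs, so the members' share was close to that of TRBJ pairs in general. Neighbours in the order that were not told apart were TRBJ1-2 and TRBJ1-3, whose log2 shares differed by 0.11 ± 0.29 (SD, n = 8; exact adjusted p = 0.352; TRBJ1-2 higher in 5 of 8), and TRBJ1-5 and TRBJ1-6, which differed by -0.24 ± 0.33 (SD, n = 8; exact adjusted p = 0.0859; TRBJ1-5 higher in 1 of 8).

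**Figure D1:**
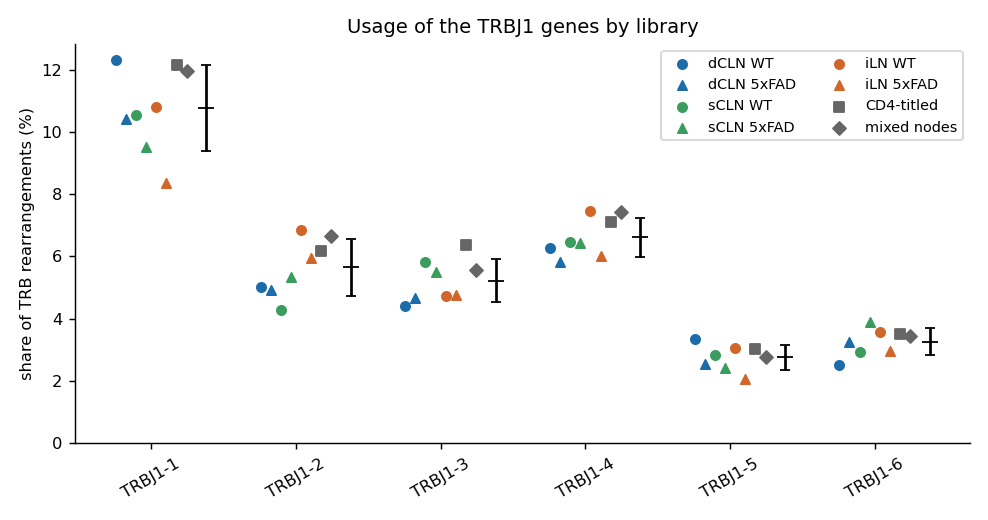
Share of distinct TRB rearrangements (%, y axis) that used each TRBJ1 gene (x axis), 1 symbol per library, with the mean and SD of the 8 libraries as a bar. TRBJ1-1 lies between 8.36% and 12.3%, TRBJ1-4 is second in every library, and the ranges of TRBJ1-2 and TRBJ1-3 overlap.

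Junctions built with the 6 genes differed in mean length, and the order largely followed the germline J bases retained, which are part of the junction. The mean junction length was 39.9 nt ± 0.19 with TRBJ1-1, 40.8 nt ± 0.24 with TRBJ1-2, 42.6 nt ± 0.23 with TRBJ1-3, 42.6 nt ± 0.25 with TRBJ1-4, 41.6 nt ± 0.36 with TRBJ1-5 and 42.6 nt ± 0.37 with TRBJ1-6 (SD of library means, n = 8). In every library TRBJ1-1 gave the shortest junctions, and its library means, from 39.5 to 40.1 nt, did not overlap those of any other member. Of the 15 pairs, 12 differed (exact adjusted p = 0.0101 for each, sign-flip test over 8 libraries, against 81.8% of all 66 pairs). The 3 pairs not told apart were those among TRBJ1-3, TRBJ1-4 and TRBJ1-6, whose mean differences were 0.07 nt or less in size. With library medians in place of means, 4 of the 15 pairs differed.

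Trimming of the J end differed between the genes. TRBJ1-3 lost the fewest bases, 1.43 ± 0.20 (SD, n = 8), and 52.6% ± 3.54 of its rearrangements kept the whole J end. TRBJ1-6, which has the longest junction part, lost the most, 4.32 ± 0.34 bases (SD, n = 8), and only 21.1% ± 5.09 of its rearrangements were untrimmed. After trimming, TRBJ1-1 kept 17.3 germline bases in the junction, TRBJ1-2 kept 18.2, TRBJ1-5 kept 19.2, TRBJ1-4 kept 19.9, TRBJ1-3 kept 20.6 and TRBJ1-6 kept 20.7. The rest of the junction, made of V, D and added bases, spanned a narrower range, from 21.9 nt with TRBJ1-6 to 22.7 nt with TRBJ1-4. The order of mean junction lengths thus followed the retained J bases, apart from TRBJ1-3, TRBJ1-4 and TRBJ1-6, which were level. Retained J bases are a part of the junction length, so this match is not an independent result.

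Against the other J cluster, TRBJ1 junctions were shorter by a small margin. Library means were 41.3 to 41.5 nt for TRBJ1 and 41.7 to 42.3 nt for TRBJ2, and the difference within a library was -0.58 nt ± 0.17 (SD), with TRBJ1 lower in 8 of 8 libraries. The exact two-sided sign-flip p was 0.0078125, the smallest that 8 libraries can give. Library medians did not differ (0 nt).

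The lengths np1 and np2 are the bases between V and D and between D and J. Where no D gene was called, np1 covers the whole gap between V and J and np2 is blank. Mean np1 was 2.93 nt with TRBJ1-1, 3.13 nt with TRBJ1-2, 3.04 nt with TRBJ1-3, 3.01 nt with TRBJ1-4, 3.29 nt with TRBJ1-5 and 3.22 nt with TRBJ1-6. It was longer with TRBJ1-5 than with TRBJ1-1 by 0.36 nt ± 0.22 (SD, n = 8; exact adjusted p = 0.0147), longer with TRBJ1-6 than with TRBJ1-1 (8 of 8 libraries; exact adjusted p = 0.0147), and longer with TRBJ1-5 than with TRBJ1-3 (7 of 8 libraries; exact adjusted p = 0.0264). These 3 pairs of 15 stood against 65.2% of all 66 pairs. In the 6 main libraries alone, where the smallest possible sign-flip p is 0.03125, 0 pairs passed. With the adjustment run over the 15 member pairs, 0 pairs passed either. There, TRBJ1-1 against TRBJ1-5 and against TRBJ1-6 had the smallest sign-flip p that 8 libraries allow (0.0078125), and an exact adjusted p of 0.0586. At that floor the adjusted p depends on how many other pairs reach it. When only rearrangements with a D call were used, 0 of the 15 pairs also passed, and mean np1 then ran from 1.60 nt with TRBJ1-3 to 1.84 nt with TRBJ1-5.

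The share of rearrangements with no D call, in which np1 spans the whole gap, was not even across the genes. It was 30.3% with TRBJ1-1, 31.3% with TRBJ1-2, 36.1% with TRBJ1-3, 31.1% with TRBJ1-4, 34.9% with TRBJ1-5 and 40.3% with TRBJ1-6, and it reached 51.3% for TRBJ1-6 in dCLN 5xFAD. For TRBJ2 genes together the share was 21.2%. Mean np2 ranged from 1.41 nt with TRBJ1-5 to 1.70 nt with TRBJ1-4. TRBJ1-4 exceeded TRBJ1-5 by 0.29 nt ± 0.21 and TRBJ1-6 by 0.20 nt ± 0.16 (SD, n = 8; each in 7 of 8 libraries; exact adjusted p = 0.0499), and these 2 of 15 pairs stood against 47% of all 66. Both np2 calls were lost when barcodes were counted in place of rearrangements and when the adjustment ran over the 15 member pairs only. The count of np2 pairs stayed at 2 in only 4 of the 17 settings tried, and was 0 to 2 when 1 library was left out.

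TRBD2, which lies downstream of the whole TRBJ1 cluster, was named in 7.99% of the D calls of TRBJ1-1, 7.24% of TRBJ1-2, 8.43% of TRBJ1-3, 6.999% of TRBJ1-4, 3.64% of TRBJ1-5 and 7.34% of TRBJ1-6. In TRBJ2 rearrangements it was named in 55.6% of D calls. The D stretch recognised in TRBJ1 junctions averaged 6.78 to 7.08 bases per gene, against 12 bases in germline TRBD1.

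**Figure D2:**
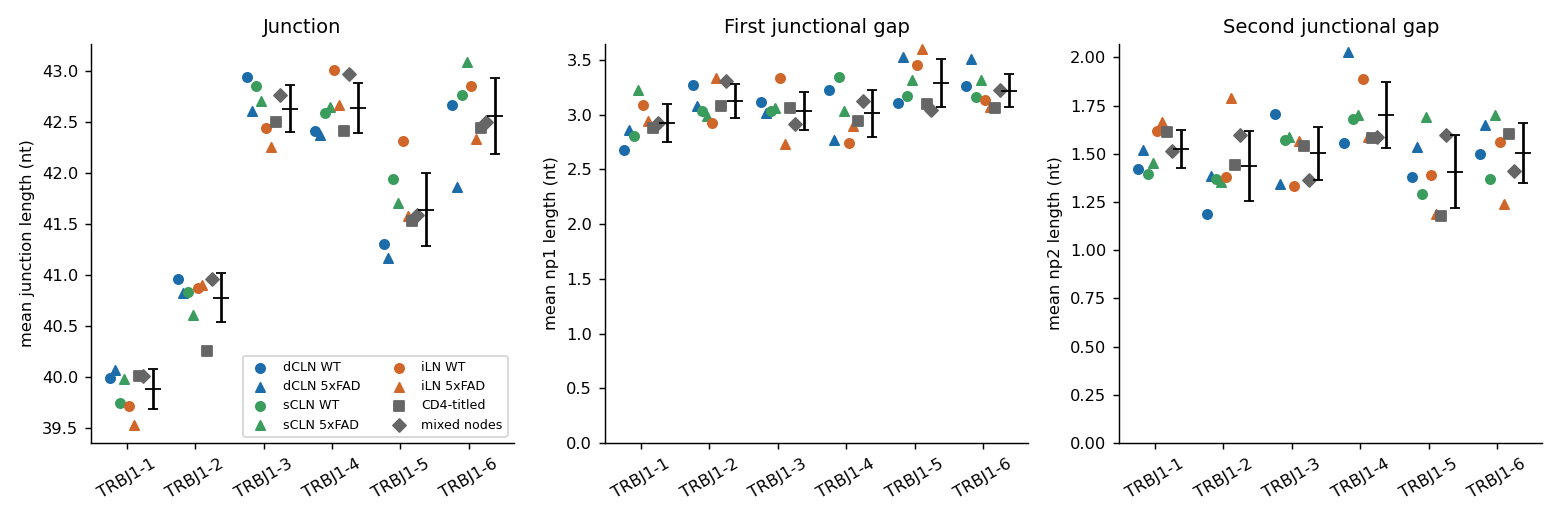
Mean junction, np1 and np2 length (nt, y axes) of each TRBJ1 gene (x axes), 1 symbol per library, with the mean and SD of the 8 libraries as a bar; the junction axis does not start at 0. TRBJ1-1 junctions lie below those of the other genes in all libraries, while the np1 and np2 ranges of the genes overlap.

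Which V genes each J gene was joined to was compared with the number expected from the V and J totals of the same library. TRBV13-2, TRBV1 and TRBV31 were the most used V genes of all TRB rearrangements, at 11.1%, 9.46% and 9.04%. The leading partner was TRBV1 for TRBJ1-1 (11.7% ± 3.21) and for TRBJ1-5 (15.8% ± 7.57), followed by TRBV13-1 and TRBV13-2 for TRBJ1-1 and by TRBV13-2 and TRBV13-1 for TRBJ1-5. These shares pool the germline forms of the 2 genes, whose TRBV1 shares differed and are given below. TRBV31 led for TRBJ1-2 (11.3% ± 3.24), TRBJ1-4 (11.4% ± 3.00) and TRBJ1-6 (12.9% ± 2.35; SD, n = 8 throughout). TRBV13-2 and TRBV13-1 came next for TRBJ1-2, TRBV1 and TRBV13-2 for TRBJ1-4, and TRBV1 and TRBV13-3 for TRBJ1-6. TRBJ1-3 was led by TRBV13-3 (11.5% ± 3.86), then TRBV13-2 and TRBV13-1.

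Pairs with an expected count of at least 30 over the 8 libraries were tested by edgeR's quasi-likelihood F test with Benjamini-Hochberg adjustment over 207 TRBV–TRBJ pairs. Of the 94 TRBJ1 pairs among them, 14 were called above and 14 below expectation, against 12.1% above and 10.6% below of all 207 pairs. In the 6 main libraries alone, 15 TRBJ1 pairs were called of 66 tested, all 15 among these 28. TRBJ1-2 had the most calls, with 3 above and 5 below among 17 tested, followed by TRBJ1-1 with 3 above and 4 below among 19 and TRBJ1-6 with 4 above and 2 below among 15. TRBJ1-3 had 2 above and 1 below among 15, TRBJ1-4 had 1 above and 2 below among 18, and TRBJ1-5 had 1 above and 0 below among 10. All 28 pairs lay on the same side of expectation in the 6 main libraries together and in the CD4-titled and mixed libraries together. The same 8 libraries gave the calls, so this agreement is not an independent test. Some pairs lay close to expectation, such as TRBV3 with TRBJ1-4 in the CD4-titled and mixed libraries (57 against 59.6).

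The largest excess was TRBV12-1 with TRBJ1-2. Going through dCLN, sCLN and iLN in turn, it was seen 7, 5 and 9 times in the WT libraries and 8, 18 and 4 times in the 5xFAD libraries, and 10 times in the CD4-titled library and 24 in the mixed library, above expectation in 8 of 8. The total was 85 against 31.8 expected, and the log2 ratio fitted over the libraries, which is the ratio given for every pair here, was 1.35 (SE 0.16; edgeR adjusted p = 1.93e-11). TRBJ1-2 was also joined more often than expected to TRBV26 (118 against 66.2; log2 ratio 0.80) and TRBV20 (92 against 58.1; log2 ratio 0.63), both above in 8 of 8 libraries. The other leading excesses were TRBV19 with TRBJ1-6 (log2 ratio 0.60), TRBV15 with TRBJ1-1 (0.58) and TRBV1 with TRBJ1-5 (0.58), the last above in 7 of 8 libraries. TRBV1 with TRBJ1-5 was seen 79 times against 45.9 expected in the 6 main libraries, and 24 against 21.8 in the CD4-titled and mixed libraries.

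The deepest deficit was TRBV3 with TRBJ1-6, which occurred 1, 0 and 0 times in the WT libraries of dCLN, sCLN and iLN, 2, 3 and 1 times in their 5xFAD libraries, 3 times in the CD4-titled library and 2 in the mixed library. Every library was below expectation, with 12 in all against 55.7 expected and a fitted log2 ratio of -2.15 (SE 0.33; edgeR adjusted p = 2.48e-07). TRBV16 was also rare with TRBJ1-6 (11 against 32.9; log2 ratio -1.54), and TRBV12-2 with TRBJ1-1 (15 against 39.0; -1.36). TRBJ1-2 showed deficits with TRBV15 (12 against 31.1; -1.35), TRBV14 (25 against 55.9; -1.15) and TRBV5 (75 against 140.4; -0.91). TRBV15 was thus above expectation with TRBJ1-1 and below it with TRBJ1-2, in 8 of 8 libraries each.

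**Figure D3:**
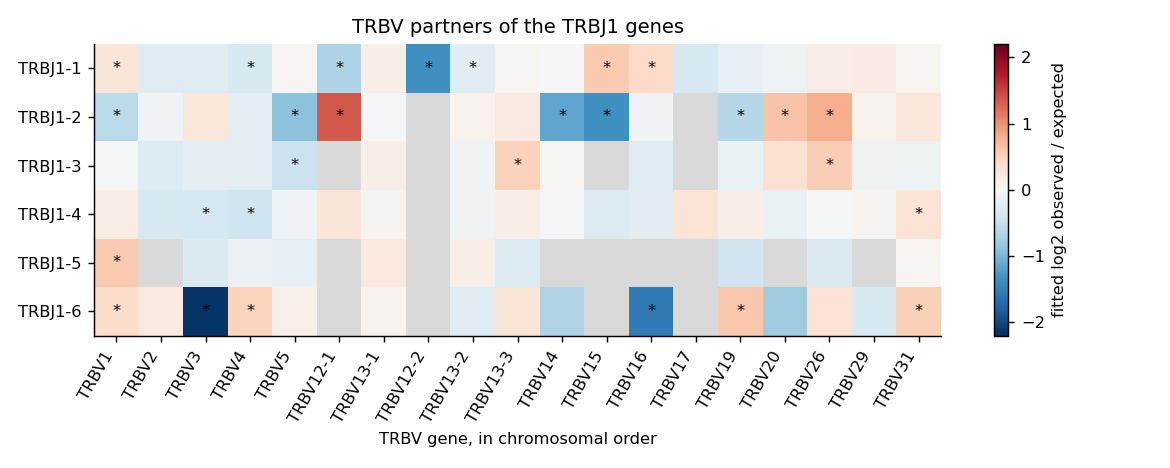
Fitted log2 ratio of observed over expected rearrangements (colour) for each TRBJ1 gene (rows) and TRBV gene in chromosomal order (columns), over 8 libraries; asterisks mark pairs with an adjusted p under 0.05 and grey marks pairs below the expected count of 30. TRBV12-1 with TRBJ1-2 (1.35) and TRBV3 with TRBJ1-6 (-2.15) are the extremes.

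Differences between nodes and genotypes were tested for 33 TRBV and TRBJ genes in the 6 main libraries with edgeR's quasi-likelihood test on node type and genotype. No gene was called (0%) at an adjusted p under 0.05 for dCLN against iLN, sCLN against iLN, dCLN against sCLN or 5xFAD against WT, and DESeq2 also called 0 in each. At an unadjusted edgeR p under 0.05 there were 2, 0, 1 and 3 genes. The 6 TRBJ1 genes had a median log2 difference of -0.11 for dCLN against iLN (2 higher, 4 lower), 0.06 for sCLN against iLN (4 higher, 2 lower), -0.03 for dCLN against sCLN (3 higher, 3 lower) and -0.07 for 5xFAD against WT (3 higher, 3 lower). Over all 33 genes the medians were -0.01, 0.04, -0.02 and -0.05. For the 6 TRBJ2 genes, 5 were higher and 1 lower in 5xFAD, with a median of 0.05.

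TRBJ1-2 was the member whose iLN values stood apart from the cervical nodes. Its share was 6.85% in iLN WT (95% Clopper-Pearson interval 5.88 to 7.92) and 5.94% in iLN 5xFAD (5.04 to 6.95). In dCLN it was 5.03% in WT and 4.93% in 5xFAD, and in sCLN 4.27% in WT (3.40 to 5.28) and 5.34% in 5xFAD (4.61 to 6.15). Both iLN libraries thus exceeded the 4 cervical libraries, though the interval of each, which covers counting error only, overlapped those of cervical libraries. Such a separation occurred in 2 of 33 genes (6.06%), and TRBJ1-2 was the only TRBJ1 gene among them. The log2 difference was -0.36 for dCLN against iLN (SE 0.17; edgeR adjusted p = 0.872) and -0.40 for sCLN against iLN (SE 0.18; edgeR adjusted p = 0.994), so neither passed. Without the iLN WT library these differences shrank to -0.20 and -0.23, and without sCLN WT the second was -0.20. The CD4-titled dCLN library, at 6.16%, and the mixed library, at 6.66%, lay within the iLN range, so a dCLN library outside the main 6 was as high as the inguinal ones.

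The gap was larger among cells in which both chains were read, taken as barcodes with 1 TRB chain and 1 or 2 TRA chains, a split added after the data were seen. There TRBJ1-2 took 7.06% (WT) and 6.74% (5xFAD) in iLN, against 4.36% and 4.45% in dCLN and 3.70% and 4.87% in sCLN. How many of the 33 genes set iLN apart among these cells was not counted. The log2 differences were -0.66 for dCLN against iLN (SE 0.23; edgeR adjusted p = 0.183) and -0.68 for sCLN against iLN (SE 0.23; edgeR adjusted p = 0.168). In the remaining barcodes the iLN shares of 6.32% and 5.34% overlapped the cervical range of 4.90% to 6.10%.

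**Figure D4:**
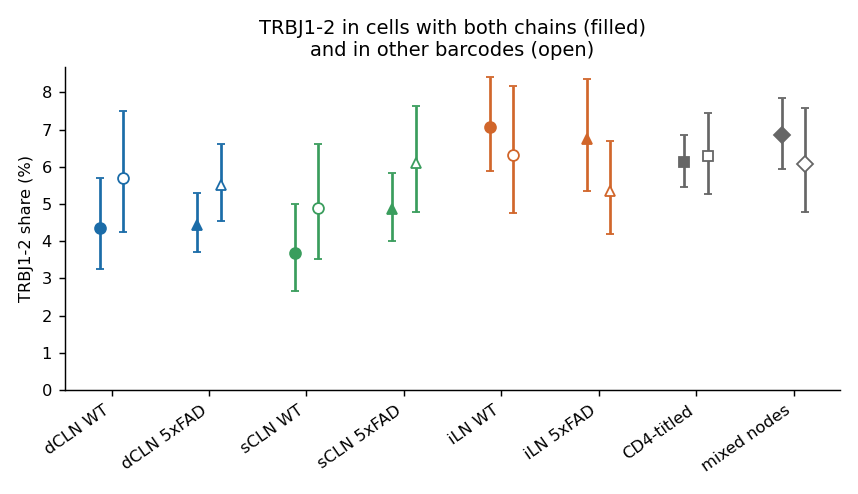
TRBJ1-2 share (%, y axis) by library (x axis) in cells with both chains (filled symbols) and in other barcodes (open symbols), with 95% Clopper-Pearson intervals. The 2 iLN libraries lie above the 4 cervical libraries among cells with both chains, at 7.06% and 6.74%, and not among other barcodes. The split was added after the data were seen, and how many other genes separate in this way was not counted.

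The other members had smaller log2 differences between node types, though both sCLN libraries exceeded the other main libraries for TRBJ1-3. How many of the 33 genes set sCLN apart in this way was not counted. TRBJ1-3 had its highest main-library values in sCLN, at 5.81% in WT and 5.52% in 5xFAD, against 4.41% and 4.66% in dCLN and 4.73% and 4.75% in iLN (dCLN against sCLN log2 difference -0.32, SE 0.15, edgeR adjusted p = 0.903). Its highest share over all 8 libraries was 6.37%, in the CD4-titled dCLN library, so a dCLN library outside the main ones exceeded both sCLN libraries. TRBJ1-1 did not pass the threshold for dCLN against iLN, with a log2 difference of 0.25 (SE 0.10, edgeR adjusted p = 0.645). For TRBJ1-4, TRBJ1-5 and TRBJ1-6, log2 differences between node types were within 0.24 in size.

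Between genotypes, the 5xFAD library was below the WT library of the same node type in 3 of 3 cases for TRBJ1-1. The deepest gap was in iLN (8.36% in 5xFAD and 10.8% in WT), then dCLN (10.4% and 12.3%) and sCLN (9.53% and 10.6%). The log2 difference was -0.25 (SE 0.08; edgeR adjusted p = 0.402). TRBJ1-5 was also lower in 3 of 3, with 5xFAD shares of 2.05% to 2.55% and WT shares of 2.83% to 3.34% (log2 difference -0.39, SE 0.21; edgeR adjusted p = 0.562). For these 2 members the WT and 5xFAD libraries did not overlap, which held for 8 of 33 genes (24.2%). Fitted among the TRBJ genes alone, TRBJ1-1 had an edgeR adjusted p of 0.0419, the one setting of those run in which a TRBJ1 gene was called. The remaining 4 members had log2 differences from -0.14 to 0.17.

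By Pearson correlation of log2 shares over the 6 main libraries, given as a description over 32 other genes that share each library's depth, TRBJ1-1 and TRBJ1-5 were most like each other (r = 0.97). TRBJ1-2 was most like TRBV4 (0.69), TRBJ1-4 (0.55) and TRBJ1-6 (0.40). The nearest pattern was TRBV12-2 for TRBJ1-3 (0.62), TRBV13-2 for TRBJ1-4 (0.85) and TRBV30 for TRBJ1-6 (0.67).

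The contigs carried more than one germline form of 2 members, noticed after the data were seen and given as a description. Over the bases that follow the junction, TRBJ1-2, TRBJ1-3, TRBJ1-4 and TRBJ1-6 equalled the reference in at least 99.87% of rearrangements. TRBJ1-1 had a second form and TRBJ1-5 a second form and another, called the third form here. Substitutions are given as reference base, position from 1 at the 5′ end of the J gene, and contig base, and the differing bases are in capitals.
TRBJ1-1, reference form: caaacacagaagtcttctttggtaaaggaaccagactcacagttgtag
TRBJ1-1, second form (A35G): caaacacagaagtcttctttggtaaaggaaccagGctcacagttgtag
TRBJ1-5, reference form: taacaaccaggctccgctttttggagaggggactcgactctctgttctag
TRBJ1-5, second form (C40T): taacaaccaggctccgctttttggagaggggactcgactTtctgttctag
TRBJ1-5, the third form (C15A, T18A): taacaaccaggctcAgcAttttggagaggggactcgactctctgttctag
A35G and C40T leave the encoded amino acid unchanged, whereas C15A changes proline to glutamine and T18A leucine to histidine within the junction.

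In the 6 main libraries the shares of the TRBJ1-5 reference form in WT and 5xFAD did not overlap. It made up 27 of 65 TRBJ1-5 rearrangements in dCLN WT (41.5%, 95% Clopper-Pearson interval 29.4 to 54.4), 21 of 53 in sCLN WT (39.6%) and 29 of 75 in iLN WT (38.7%). In 5xFAD it was 0 of 119 in dCLN, which allows a share of up to 2.52%, 0 of 82 in sCLN, which allows up to 3.66%, and 1 of 50 in iLN (2.00%). The CD4-titled library, although labelled WT, held 0 of 203, which allows up to 1.48%, and the mixed library 58 of 111 (52.3%). The third form was present in all 6 main libraries, from 1.89% in sCLN WT to 18% in iLN 5xFAD, and in 0 of 203 and 0 of 111 rearrangements of the other 2. The second form of TRBJ1-1 likewise made up 4.55% to 12.8% in the 6 main libraries and 0 of 813 and 0 of 478 in the CD4-titled and mixed libraries. The sources used here give no strain, and germline alleles and genotype cannot be told apart in the comparisons of 5xFAD with WT, those of TRBJ1-1 and TRBJ1-5 included.

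**Figure D5:**
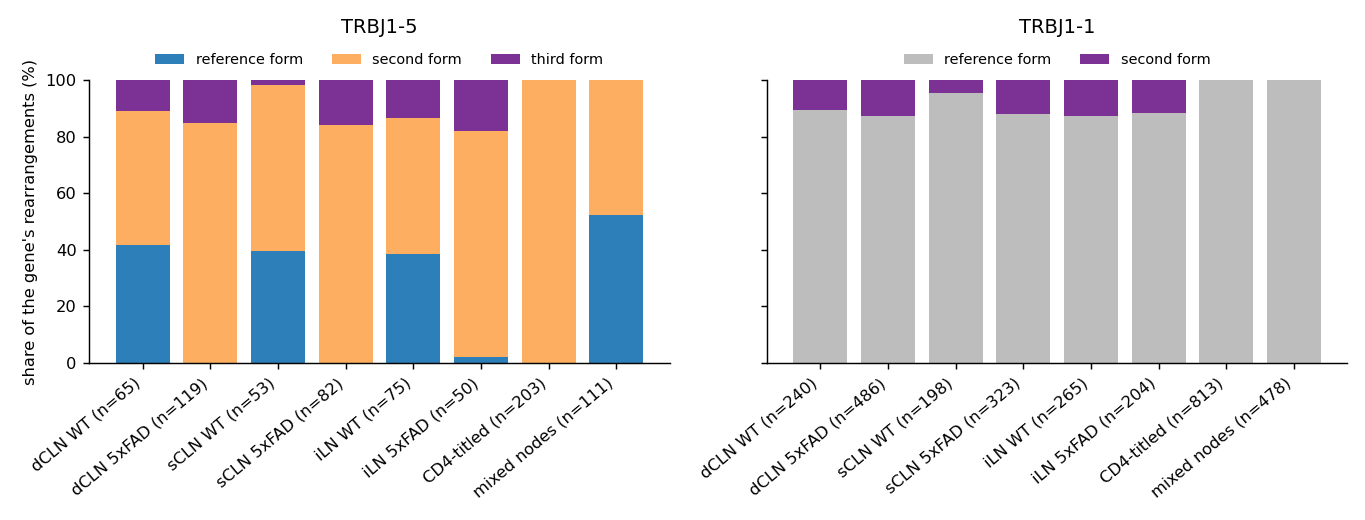
Share (%, y axis) of the germline forms of TRBJ1-5 (left) and TRBJ1-1 (right) among each gene's distinct rearrangements by library (x axis, with the number of rearrangements). The TRBJ1-5 reference form makes up 38.7% to 41.5% in the 3 WT libraries and at most 2.00% in the 3 5xFAD libraries.

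The rarer forms were joined to a restricted set of V genes. The 9 TRBV genes from TRBV12-1 to TRBV17 lie next to each other, and the SJL strain is known to lack that stretch. In the 6 main libraries they were the partner of 733 of 1524 TRBJ1-1 rearrangements of the reference form (48.1%) and of 1 of 192 of the second form (0.521%). For TRBJ1-5 they were the partner of 32 of 78 rearrangements of the reference form (41.0%), 137 of 308 of the second (44.5%) and 0 of 58 of the third, which allows up to 5.17%. TRBV1 was the partner of 37.0% of the TRBJ1-1 second form and 9.78% of the reference form, where TRBV13-1 took 11.8%. With TRBJ1-5, TRBV1 took 36.2% of the third form, 15.4% of the reference form and 14.9% of the second, where TRBV13-2 took 15.6%. The part of the forms in the TRBV1 shares and in its excess with TRBJ1-5 was not tested. The alleles TRBV4*02 (21 rearrangements), TRBV5*05 (24), TRBV19*03 (13) and TRBV26*02 (12) were joined to the TRBJ1-1 second form or the third form of TRBJ1-5 and to no other form of these 2 genes, while TRBV4*01 (79) and TRBV5*01 (167) were joined to the other forms only.

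TRBJ1-4 had a lower share beside these V alleles, in a split made after the data were seen that did not pass the threshold after adjustment. Among TRBV4 and TRBV5 rearrangements of the 6 main libraries, it was the J gene of 4 of 417 with TRBV4*02 or TRBV5*05 (0.959%) and of 129 of 2093 with other alleles (6.16%). The share was lower in 6 of 6 libraries, by 5.76 points ± 2.23 on average (SD, n = 6; exact two-sided sign-flip p = 0.03125, the smallest possible; adjusted over 12 TRBJ genes p = 0.1875). TRBJ1-3 was also lower in 6 of 6, at 2.40% against 4.06%, and had the same p-values. All TRBJ1 genes together made up 22.5% beside the rarer alleles and 30.2% beside the others. The rarer alleles took 13.6% to 19.1% of TRBV4 and TRBV5 rearrangements per library.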

How the data were processed

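Contigs came from 10x 5′ V(D)J libraries. The submitters' processing notes name Cell Ranger 6.0.1, Seurat 4.1.0 and mm10, and per the file headers the deposited tables are IgBLAST annotations in AIRR format. Deposited values used were UMI counts and read counts per contig, lengths and germline positions in bases, and J identity as a fraction. IgBLAST used another set of germline alleles for the mixed and CD4-titled libraries, so V alleles were compared in the 6 main libraries only.

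Distinct productive rearrangements were counted per library with no correction for depth other than the offset. Usage of 33 genes with at least 10 rearrangements was fitted with edgeR 4.0.16 (R 4.3.3; node type plus genotype, offset the log number of rearrangements), with DESeq2 1.42.0 as an alternative. TRBV–TRBJ pairs were tested with legacy quasi-likelihood dispersions and an F computed from deviances against the expected counts. Pairs of TRBJ genes were compared by exact sign-flip tests (adjusted over 66 pairs, where 15 had been planned; both were run), on log2 shares with a pseudocount of 0.5 rearrangements or on mean lengths. The threshold was an adjusted p of 0.05. The scripts were tested on simulated data. Members, gene lists and tests were chosen with earlier results of these data known. Named V genes were the 3 leading partners of each member and the 6 largest and 6 smallest ratios among called pairs; patterns most like a member were named by Pearson r, 3 for TRBJ1-2 and 1 for each other. Alternatives were barcodes or amino acid junctions in place of rearrangements, UMI and chain filters, medians, other expected counts, and leaving out each library. Intervals and limits of 0 (3 counts) cover counting error only. Recombination signal sequences were not analysed here.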

Additional observations from a re-analysis of the deposited data

Results flagged for a closer look

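The 5xFAD minus WT difference in the TRBJ1 share had opposite signs in different node types. It was -6.40 percentage points in iLN (30.1% against 36.5%) and -2.22 in dCLN (31.6% against 33.9%), against 0.27 in sCLN (33.1% against 32.9%). With 1 library per node type and genotype, this difference between node types was not tested. The share of the TRBJ1-5 reference form, which differed between the genotypes in all 3 node types, was 38.7% in iLN WT and 2.00% in iLN 5xFAD; its part in the result was not tested.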

How the results depend on the processing

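The TRBJ1 minus TRBJ2 junction difference and the genotype difference in the TRBJ1 share reversed under no setting tried. The same held for the TRBJ1-2 differences of dCLN and sCLN against iLN. It also held for TRBJ1-1 between genotypes and TRBJ1-3 between dCLN and sCLN. For the other node and genotype differences of single members, direction was not followed across settings. Counts of called pairs or genes have no direction. Leaving out 1 library at a time gave 13 to 14 usage pairs, 12 junction pairs, 2 to 4 np1 pairs and 0 to 2 np2 pairs, and a cluster difference between genotypes of -4.31 to -0.97 points when 1 node type was left out. Differing np1 pairs fell from 3 to 0 with the 6 main libraries, with medians, with D-called rearrangements only or with adjustment over 15 pairs. Differing np2 pairs fell from 2 to 0 with barcodes, with barcodes of exactly 1 TRB contig, with the 6 main libraries, with medians or with adjustment over 15 pairs, and to 1 with at least 2 UMIs. With medians, 4 junction pairs differed, and the TRBJ1 minus TRBJ2 junction difference was 0. Genes called between genotypes ranged from 0 to 1 without 1 library (1 without sCLN WT and 1 without sCLN 5xFAD) and numbered 1 with the TRBJ genes alone. For sCLN against iLN the range was 0 to 4, with 4 without sCLN WT. Without 1 library at a time, the TRBJ1-2 differences ranged from -0.54 to -0.20 for dCLN against iLN and from -0.64 to -0.20 for sCLN against iLN; under the other settings they ranged from -0.66 to -0.32 and from -0.68 to -0.37. Called TRBJ1 partner pairs numbered 15 in the 6 main libraries (15 of them shared with the 28), 18 at an expected count of at least 60, and 21 to 26 without 1 library. These smaller sets tested fewer pairs (66 and 63 of 94). Adjustment over 15 pairs used the same unadjusted p-values, and 6 libraries allow no sign-flip p below 0.03125. For the other changes the cause was not tested. No paired analysis was possible because, by replicate number, each main group has 1 library; node type was a term of the fit. Depth was lowest for TRBJ1-5, with 50 to 203 rearrangements per library, and TRBJ1-6, with 49 to 234.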

Other observations

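Few TRBJ1 rearrangements were found in more than 1 library: 9398 occurred in 1 library, 83 in 2 and 4 in 3. For TRBJ2 these numbers were 17603, 122 and 7, and 1 occurred in 4. By gene, 1.08% of TRBJ1-1, 0.894% of TRBJ1-2, 1.03% of TRBJ1-3, 0.826% of TRBJ1-4, 1.07% of TRBJ1-5 and 0.328% of TRBJ1-6 rearrangements were in at least 2 libraries. The 4 TRBJ1 junctions found in 3 libraries had few or no added bases, shown in capitals as annotated in 1 of the libraries, where no D call makes the added bases the whole gap between V and J (all genes on mouse chromosome 6).
TRBV1 with TRBJ1-4 (dCLN 5xFAD, sCLN 5xFAD, mixed): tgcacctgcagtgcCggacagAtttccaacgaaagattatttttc
TRBV26 with TRBJ1-1 (dCLN WT, sCLN WT, iLN WT): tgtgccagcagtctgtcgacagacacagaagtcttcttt
TRBV13-1 with TRBJ1-3 (sCLN 5xFAD, CD4-titled, mixed): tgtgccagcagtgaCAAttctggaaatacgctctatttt
TRBV13-1 with TRBJ1-3 (dCLN WT, sCLN 5xFAD, mixed): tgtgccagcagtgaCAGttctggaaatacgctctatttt

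Sharing of TRBJ1 rearrangements between main libraries, per 1000000 pairs compared, was 9.04 between WT libraries (95% interval 4.94 to 15.2, counting error only), 3.09 between 5xFAD libraries (1.54 to 5.52) and 1.80 between libraries of different genotype (0.957 to 3.07). For TRBJ2 these rates were 4.47, 1.21 and 0.986, in the same order. Whether libraries of a genotype came from the same animals is not given. Rearrangements seen in 2 or more barcodes of a library made up 1.77% (iLN 5xFAD) to 8.64% (dCLN WT) of TRBJ1 rearrangements, and 8.77% of TRBJ2 rearrangements in dCLN WT.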
